A study of Mus musculus with 9 samples.

Results

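The BTG and TOB genes Btg1, Btg2, Btg3, Tob1 and Tob2, together with Tsc22d3 and Pik3ip1, form a set of 7 genes of T cell quiescence and growth restraint. Their symbols in GENCODE M21 were matched to the Ensembl identifiers of the deposited count matrix, and all 7 were found among its 47937 identifiers. RNA came from CD4+ T cells of C57BL/6 mouse spleen, isolated with magnetic beads as resting cells, in 3 groups of 3 libraries. Th0_TEPP cells (TEPP-46 cells below) were stimulated with plate-bound antibodies to CD3 and CD28 after 15 min with TEPP-46, a small molecule that activates the glycolytic enzyme pyruvate kinase M2. Th0_Ctrl cells (DMSO cells) were stimulated alike after DMSO, the solvent. Resting cells are those labelled as resting, the isolated starting population. DMSO and resting cells differ in stimulation, and perhaps in solvent and culture, and the parts of these cannot be told apart. The labels give 50 to 100 µM as the range of TEPP-46 and no concentration per library. The labels give neither the length of stimulation nor the age of the mice nor any pooling of animals, and do not say whether resting cells were cultured. Nor do they tie libraries to animals, and p-values therefore reflect spread among libraries that may be only technical.

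Quiescent lymphocytes are held out of the cell cycle by active restraint. BTG and TOB proteins share an N-terminal domain that binds the CNOT7 and CNOT8 deadenylases of the CCR4-NOT complex, which shortens the poly(A) tail of mRNA, and loss of Btg1 and Btg2 in mouse T cells weakens quiescence. Tsc22d3 encodes GILZ, a leucine zipper protein induced by glucocorticoids and by FOXO factors that restrains AP-1 and NF-kappaB. Pik3ip1 encodes a transmembrane inhibitor of phosphoinositide 3-kinase (PI3K), the kinase that costimulation engages.

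The windows before the RefSeq starts of Btg2 and Pik3ip1, the genes that TEPP-46 raised, and of Btg1, the closest relative of Btg2, are shown because the measured differences lie between these genes. Each line holds the 250 bases before the RefSeq transcript start in GRCm38.p6, 5′ to 3′ on the strand of the gene. The windows are chr1:134079156-134079405 (minus strand) for Btg2, chr11:3330481-3330730 (plus strand) for Pik3ip1 and chr10:96616751-96617000 (plus strand) for Btg1. Capitals mark the cyclic AMP response element TGACGTCA and its shorter form TGACG, which overlaps it, the FOXO core GTAAACA, the E-box CACGTG and the TATA box TATAAA, on either strand.
Btg2: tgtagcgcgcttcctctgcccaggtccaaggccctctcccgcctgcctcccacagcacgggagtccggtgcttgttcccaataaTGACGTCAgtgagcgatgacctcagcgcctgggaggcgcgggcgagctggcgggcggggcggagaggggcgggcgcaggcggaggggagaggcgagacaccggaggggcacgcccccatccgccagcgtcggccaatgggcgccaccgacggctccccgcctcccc
Pik3ip1: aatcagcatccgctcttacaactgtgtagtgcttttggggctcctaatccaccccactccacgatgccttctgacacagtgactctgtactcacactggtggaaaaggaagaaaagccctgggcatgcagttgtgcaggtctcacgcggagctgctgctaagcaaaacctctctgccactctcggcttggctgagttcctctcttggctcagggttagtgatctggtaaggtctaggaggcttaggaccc
Btg1: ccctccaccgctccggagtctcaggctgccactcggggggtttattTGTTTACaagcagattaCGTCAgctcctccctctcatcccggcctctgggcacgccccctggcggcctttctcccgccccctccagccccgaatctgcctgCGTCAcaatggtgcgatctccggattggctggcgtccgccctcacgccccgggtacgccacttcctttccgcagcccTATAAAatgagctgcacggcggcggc
The Btg2 window holds the full response element TGACGTCA, which 1.55% of 32851 RefSeq mouse promoter windows of this length hold. The Btg1 window holds the FOXO core (3.17% of windows), the TGACG letters at 2 places and a TATA box. The Pik3ip1 window precedes the RefSeq start but lies inside the gene as GENCODE M21 bounds it, which begins further upstream, so bases before the GENCODE start were not searched. That window holds none of the capitalised motifs. RefSeq gives 10 windows for the 7 genes, since Btg3 has 2 and Tsc22d3 has 3. The Tob2 window and the Btg3 window at 78376811 to 78377060 likewise lie inside their genes as GENCODE M21 bounds them. So do the Tsc22d3 windows at 140542669 to 140542918 and 140548572 to 140548821. Among these 10 windows, 4 hold TGACG (17.8% of all windows), 2 the TATA box (12.4%) and 0 the E-box (6.02%). The KLF motif CCACACCC was found in 0 of the 10 windows (3.20% of all windows), CCAAT in 5 (33.8%) and the GC box GGGCGG in 7 (32.7%). A match describes the letters of the window and was not tested as a binding site.

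The libraries held 2397304 to 5030643 counts. Levels are counts scaled to a common library size (CPM) on TMM-scaled library sizes, where 3 counts correspond to 0.603 to 1.26 CPM. The TEPP-46 libraries correlated with each other at 0.818 to 0.913 (Pearson, log2 CPM over genes), against 0.972 to 0.983 among DMSO and 0.937 to 0.977 among resting libraries. All 3 TEPP-46 pairs were thus below every pair of the other groups, and TEPP-46 replicates 1 and 4 were the least alike. All 6 T cell markers were detected in every group. They summed to 5557 to 6759 CPM in TEPP-46, 3502 to 4916 CPM in DMSO and 3823 to 6994 CPM in resting libraries. The 2 CD8 markers summed to at most 22.2 CPM and the 4 NK cell markers to at most 128 CPM in any library. The 6 myeloid markers summed to 120 to 135 CPM in TEPP-46, 96.5 to 110 CPM in DMSO and 94.9 to 131 CPM in resting libraries. The 7 B cell markers summed to 730 to 1209 CPM in TEPP-46, 230 to 256 CPM in DMSO and 2527 to 3959 CPM in resting libraries, with 0 markers absent from any group. The nuclear RNA Malat1, a sign of RNA composition, stood at 2532, 12292 and 12824 CPM in TEPP-46 replicates 1, 4 and 5, at 2067 to 4120 CPM in DMSO and at 4373 to 8385 CPM in resting libraries. The 83 ribosomal protein genes summed to 39403, 9590 and 19696 CPM in TEPP-46 replicates 1, 4 and 5, to 24815 to 32175 CPM in DMSO and to 17699 to 24668 CPM in resting libraries. In bulk RNA, fewer cells with a transcript and less of it per cell cannot be told apart.

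Btg2 and Pik3ip1 were higher in TEPP-46 than in DMSO cells, while Tsc22d3 overlapped its DMSO level and the means of Tob1, Tob2 and Btg1 lay between DMSO and resting cells. Of the 7 genes, 2 rose and 0 fell with TEPP-46 in edgeR's quasi-likelihood test (Benjamini-Hochberg adjusted p below 0.05 over 12536 genes). Over all genes, 9.72% rose and 6.43% fell. The TEPP-46 and DMSO libraries did not overlap for 6 of the 7 (39.7% of all genes), 5 with TEPP-46 above (19.7%) and 1 with it below (20%). The median log2 fold change of the 7 genes was 0.66, against 0.04 over all genes tested. In DMSO over resting cells, 5 of the 7 fell and 0 rose, where 15.8% of all genes fell and 15.5% rose, and the median was -1.59 against -0.04. The DMSO and resting libraries did not overlap for 7 of 7 (59.2% of all genes), 6 with DMSO below (30%) and 1 with DMSO above (29.2%). In TEPP-46 over resting cells, 3 fell and 0 rose, where 3.92% of all genes fell and 6.37% rose, and the median was -0.50 against 0.02. In either direction 10.3% of all genes were called there, and 3 of the 7 did not overlap (26.8%). The comparisons share groups, so their counts are not independent of each other.

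**Figure D1:**
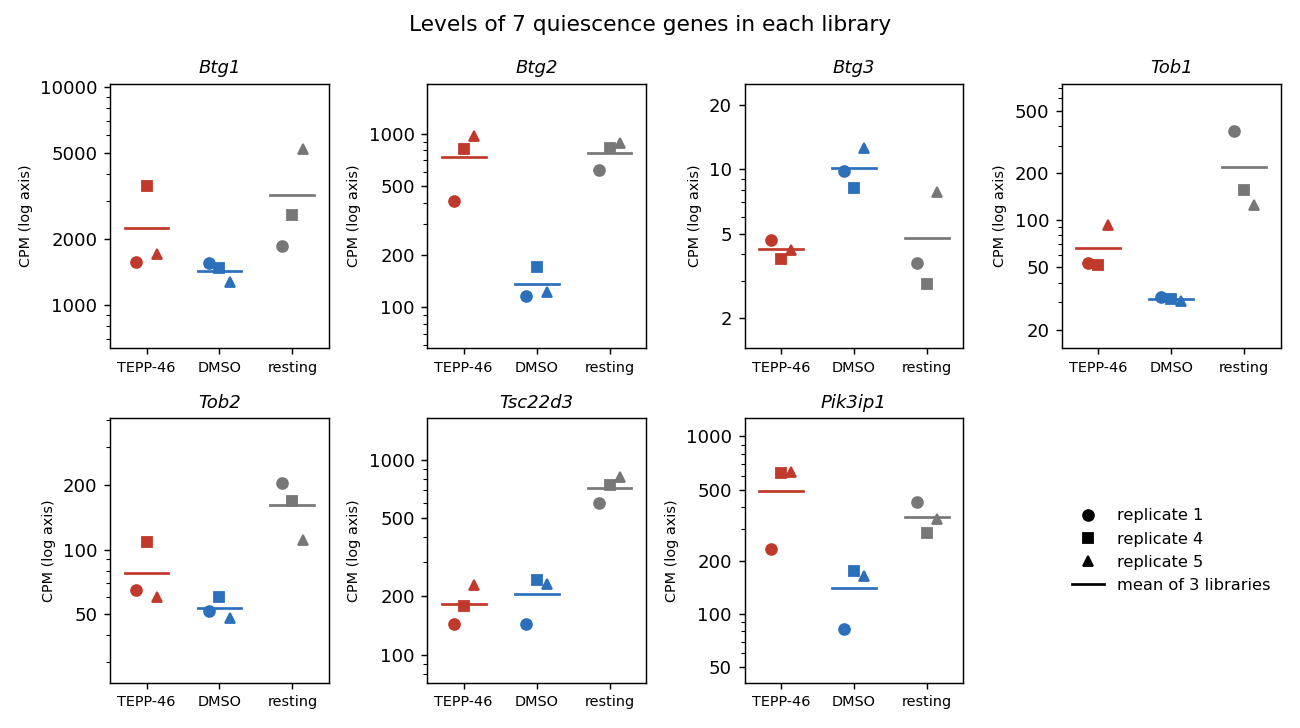
Level of each gene in CPM (log axis) in the 3 libraries of each group, with symbols for the replicate number and a line at the mean. Btg2 and Pik3ip1 in TEPP-46 cells lie above every DMSO library, Tsc22d3 overlaps between both activated groups, and Btg3 alone is higher in DMSO than in resting cells.

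Btg2 (ENSMUSG00000020423.6, chromosome 1, 134075170 to 134079120, minus strand, GRCm38), an antiproliferative gene that p53 and growth signals induce, showed the largest rise of the set. It stood at 408, 821 and 973 CPM in TEPP-46 replicates 1, 4 and 5, at 116, 169 and 122 CPM in the DMSO replicates and at 616, 822 and 888 CPM in the resting ones. The lowest TEPP-46 library had a clear margin over the highest DMSO library, and the TEPP-46 and resting libraries overlapped. The log2 fold change in TEPP-46 over DMSO cells was 2.44 ± 0.33 (SE, adjusted p = 0.00277 in edgeR), a 5.41-fold rise that ranked 90 of 12536 genes by p. It was called under all 19 alternative settings, with log2 fold changes of 2.18 to 2.72 and adjusted p of 2.8e-10 to 0.0266. The log2 CPM of Btg2 had an SD of 0.66 in TEPP-46, 0.30 in DMSO and 0.28 in resting libraries, while the fit shares its estimate of spread over all groups. Btg2 fell by 2.52 on the log2 scale in DMSO over resting cells (SE 0.33, adjusted p = 0.00087). The difference between TEPP-46 and resting cells was -0.08, with a 95% interval of -0.78 to 0.62.

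Btg1 (ENSMUSG00000036478.7 in the matrix, chromosome 10, 96617006 to 96622809, plus strand), the close relative of Btg2, was the most abundant of the 7 genes per length and had no call in any comparison in the main edgeR fit. It had 1569, 3511 and 1713 CPM in TEPP-46 replicates 1, 4 and 5, against 1561, 1476 and 1269 CPM in DMSO replicates and 1859, 2587 and 5172 CPM in resting replicates. The TEPP-46 libraries lay above the DMSO ones by a margin that replicate 1 almost closed, and the resting libraries spread more widely than the TEPP-46 ones. The log2 fold change in TEPP-46 over DMSO cells was 0.66 ± 0.41 (adjusted p = 0.28, 95% interval -0.25 to 1.56) and was 0.19 without TEPP-46 replicate 4. In DMSO over resting cells it was -1.16 ± 0.41 (adjusted p = 0.0548), past the threshold under 7 of 19 alternatives, with adjusted p of 0.000598 to 0.24. In TEPP-46 over resting cells it was -0.50 ± 0.41 (adjusted p = 0.475), and -0.90 with library quality weights in limma-voom (adjusted p = 0.0399, range over 19 alternatives 0.0399 to 0.986). The near copies Btg1-ps1 and Btg1-ps2 and the egg-expressed relative Btg4 had 0 counts in all libraries.

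Tob1 (ENSMUSG00000037573.5, chromosome 11, 94211454 to 94215495, plus strand), reported as a brake on T cell proliferation in human cells, had the largest fall in DMSO over resting cells. It stood at 53.1, 52.1 and 92.9 CPM in TEPP-46 replicates 1, 4 and 5, at 32.1, 31.2 and 30.5 CPM in the DMSO replicates and at 373, 156 and 125 CPM in the resting ones. The 3 groups did not overlap, and the DMSO libraries ran from 30.5 to 32.1 CPM. Tob1 fell by 2.80 on the log2 scale in DMSO over resting cells (SE 0.42, adjusted p = 0.00134), a 6.96-fold fall. In TEPP-46 over DMSO cells the change was 1.08 ± 0.40 (adjusted p = 0.0892), past the threshold under 4 of 19 alternatives, with adjusted p of 0.000606 to 0.288. It fell by 1.72 in TEPP-46 over resting cells (SE 0.40, adjusted p = 0.0247), a call lost with the 2 groups fitted alone and with a replicate block (adjusted p = 0.0846 and 0.0603, range over 19 alternatives 0.000645 to 0.0846).

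Tob2 (ENSMUSG00000048546.7 in the matrix, chromosome 15, 81848272 to 81858796, minus strand), the second TOB gene, followed Tob1 with smaller changes. It had 64.9, 108 and 60.5 CPM in TEPP-46 replicates 1, 4 and 5, against 51.8, 60.0 and 48.1 CPM in DMSO replicates and 203, 168 and 111 CPM in resting replicates. TEPP-46 replicate 5 stood close to DMSO replicate 4. Tob2 fell by 1.59 in DMSO over resting cells (SE 0.29, adjusted p = 0.00335). In TEPP-46 over DMSO cells the change was 0.54 ± 0.29 (adjusted p = 0.214, 95% interval -0.10 to 1.18). It fell by 1.05 in TEPP-46 over resting cells (SE 0.29, adjusted p = 0.0456), a call lost in 9 of 19 alternatives (adjusted p of 0.00377 to 0.135), among them without resting replicate 1 or 4, without any DMSO library and without TEPP-46 replicate 1 or 5. The antisense gene Gm49476 overlaps Tob2, and the labels do not say whether counting used strand.

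Btg3 (ENSMUSG00000022863.14 in the matrix, chromosome 16, 78332637 to 78377192, minus strand), an antiproliferative gene whose human protein binds E2F1, had the opposite sign in both comparisons at a very low level. It stood at 4.68, 3.78 and 4.21 CPM in TEPP-46 replicates 1, 4 and 5, at 9.81, 8.16 and 12.6 CPM in DMSO replicates and at 3.62, 2.90 and 7.79 CPM in resting replicates. These values rest on 9 to 17 counts per TEPP-46 library, 34 to 50 per DMSO library and 11 to 36 per resting library. All DMSO libraries lay above all others. The log2 fold change was -1.26 ± 0.46 in TEPP-46 over DMSO cells (adjusted p = 0.0836) and 1.08 ± 0.44 in DMSO over resting cells (adjusted p = 0.0874). Library quality weights in limma-voom brought both past the threshold (adjusted p = 0.0429 and 0.0167, ranges over 19 alternatives 0.0429 to 0.252 and 0.0167 to 0.265). In DMSO over resting cells Btg3 also passed in limma-voom without weights and in edgeR without resting replicate 5 (adjusted p = 0.0498 and 0.0382). Exons of Cxadr, on the opposite strand and with 46 counts over all libraries, overlap 695 exonic bases of Btg3.

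Tsc22d3 (ENSMUSG00000031431.13, chromosome X, 140539528 to 140600659, minus strand) was lower in both activated groups than in resting cells. It had 144, 178 and 227 CPM in TEPP-46 replicates 1, 4 and 5, against 144, 243 and 230 CPM in DMSO replicates and 601, 738 and 814 CPM in resting replicates. The activated groups overlapped, and every activated library was below every resting library. Tsc22d3 fell by 1.97 in TEPP-46 over resting cells (SE 0.27, adjusted p = 0.00275) and by 1.80 in DMSO over resting cells (SE 0.27, adjusted p = 0.00132). Both falls were called under all 19 alternatives. The change in TEPP-46 over DMSO cells was -0.17 ± 0.26 (adjusted p = 0.676), with a 95% interval of -0.75 to 0.41.

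Pik3ip1 (ENSMUSG00000034614.14, chromosome 11, 3330401 to 3342971, plus strand) was the other gene that rose with TEPP-46. It stood at 232, 622 and 632 CPM in TEPP-46 replicates 1, 4 and 5, at 81.9, 176 and 163 CPM in DMSO replicates and at 425, 287 and 343 CPM in resting replicates. TEPP-46 replicates 4 and 5 exceeded every resting library, while replicate 1 lay between the DMSO and resting groups. The log2 fold change was 1.82 ± 0.41 in TEPP-46 over DMSO cells (adjusted p = 0.0172), a 3.53-fold rise. This call was lost without any of the 3 DMSO libraries or without TEPP-46 replicate 5, with adjusted p of 0.0509 to 0.0702 (range over 19 alternatives 0.000124 to 0.0702). Pik3ip1 fell by 1.33 in DMSO over resting cells (SE 0.40, adjusted p = 0.0297), lost without resting replicate 1 or 5 or any DMSO library (adjusted p up to 0.104, range over 19 alternatives 0.00176 to 0.104). In TEPP-46 over resting cells the change was 0.49 ± 0.39 (adjusted p = 0.465). The transcript Gm12592 shares 91 exonic bases with Pik3ip1 on the other strand, and its own levels were 36.0, 100.4 and 94.1 CPM in TEPP-46, 21.1, 40.1 and 42.6 CPM in DMSO and 67.0, 46.7 and 48.0 CPM in resting replicates.

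**Figure D2:**
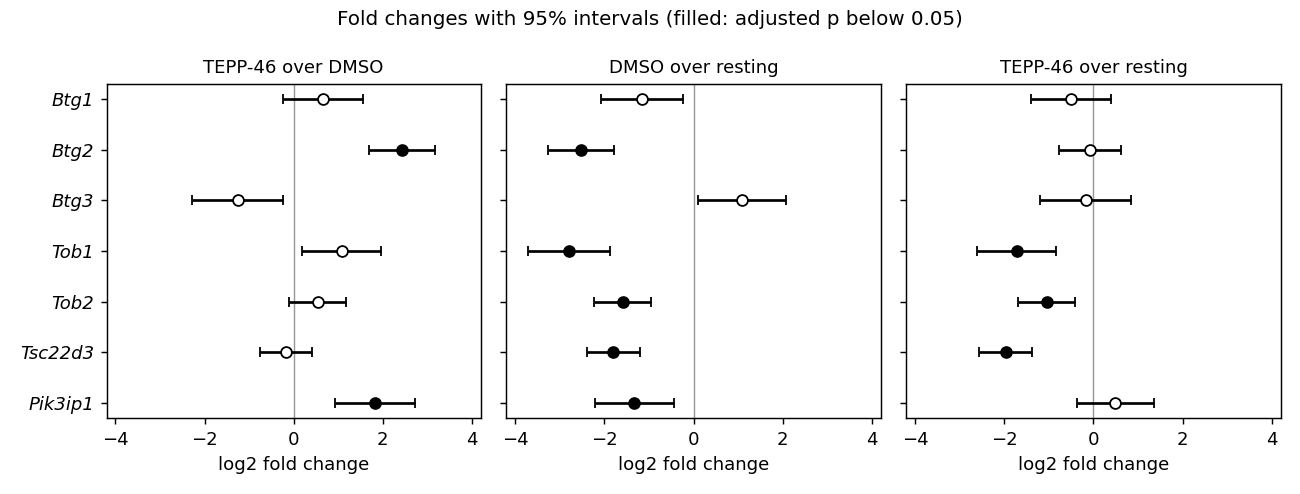
Log2 fold change of each gene in the 3 comparisons, with bars for the 95% interval from edgeR's quasi-likelihood fit and filled points for an adjusted p below 0.05. Btg2 and Pik3ip1 are the filled points right of 0 in TEPP-46 over DMSO cells, and Tob1, Tob2 and Tsc22d3 are the filled points left of 0 in TEPP-46 over resting cells.

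The separation of Btg2 and Pik3ip1 from Tsc22d3 was also measured inside each library, where scaling plays no part. The ratio of Btg2 to Tsc22d3 counts was 2.84, 4.62 and 4.28 in TEPP-46 replicates 1, 4 and 5, against 0.804, 0.696 and 0.531 in DMSO replicates and 1.02, 1.11 and 1.09 in resting replicates. Each TEPP-46 library was thus above all libraries of both other groups in this ratio, and the difference between TEPP-46 and DMSO cells was 2.52 on the log2 scale. For Pik3ip1 over Tsc22d3 the ratios were 1.62, 3.50 and 2.78 in TEPP-46, 0.570, 0.724 and 0.709 in DMSO and 0.708, 0.390 and 0.421 in resting replicates. The ratio of Btg2 to Btg1 was 0.260, 0.234 and 0.568 in TEPP-46, 0.0740, 0.114 and 0.0961 in DMSO and 0.331, 0.318 and 0.172 in resting replicates, so that TEPP-46 and resting cells overlapped. With 3 libraries against 3, a two-sided exact permutation test cannot go below p = 0.1, which these 3 ratios reached in TEPP-46 over DMSO cells (0.15 after Benjamini-Hochberg adjustment over 12 such tests). The ratio of Tob1 to Tob2 gave an exact p of 0.4 in that comparison. The pairs were chosen after their values were seen, from the same counts, so these ratios and their p-values lend no further support.

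**Figure D3:**
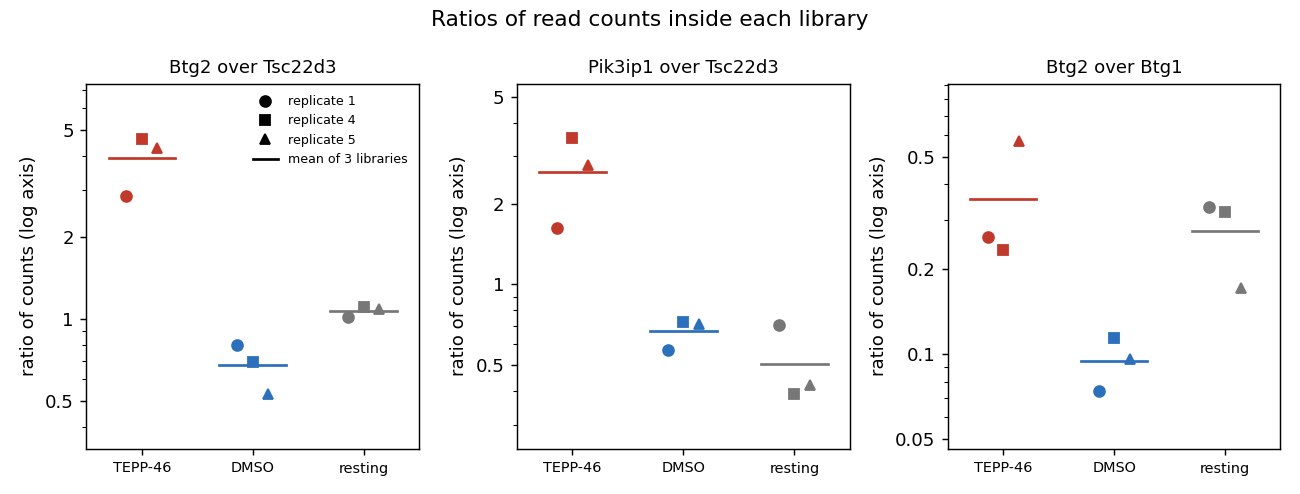
Ratio of read counts of gene pairs within each library (log axis), with symbols for the replicate number and a line at the mean of each group. The ratio of Btg2 to Tsc22d3 is 2.84 to 4.62 in TEPP-46 libraries, 0.531 to 0.804 in DMSO libraries and 1.02 to 1.11 in resting libraries.

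Divided by exon length, the order of the genes changed between groups. In TEPP-46 cells the mean levels in CPM per kilobase were 429 ± 205 for Btg1, 267 ± 106 for Btg2, 116 ± 53.4 for Pik3ip1, 42.1 ± 9.68 for Tsc22d3, 28.9 ± 10.2 for Tob1, 11.7 ± 3.94 for Tob2 and 1.05 ± 0.111 for Btg3 (SD, n = 3). In DMSO cells they were 272 ± 28.5 for Btg1, 49.4 ± 10.6 for Btg2, 47.3 ± 12.4 for Tsc22d3, 32.8 ± 11.9 for Pik3ip1, 13.7 ± 0.358 for Tob1, 8.0 ± 0.912 for Tob2 and 2.54 ± 0.56 for Btg3. In resting cells they were 608 ± 330.0 for Btg1, 283 ± 51.9 for Btg2, 165 ± 24.8 for Tsc22d3, 95.2 ± 59.0 for Tob1, 82.4 ± 16.3 for Pik3ip1, 24.1 ± 7.02 for Tob2 and 1.19 ± 0.657 for Btg3. Neighbours in this order whose libraries overlapped were Btg1 with Btg2 and Tsc22d3 with Tob1 in TEPP-46 cells. In DMSO cells they were Btg2 with Tsc22d3 and Tsc22d3 with Pik3ip1, and in resting cells Tsc22d3 with Tob1 and Tob1 with Pik3ip1. Compared inside each library, Tsc22d3 was above Tob1 in every TEPP-46 library and above Pik3ip1 in every DMSO library. The other overlapping neighbours changed order between libraries of their group. Among the 5 BTG and TOB genes, the share of Btg2 in this length-scaled sum was 31.0, 29.8 and 48.6% in TEPP-46 replicates, 11.6, 16.8 and 14.4% in DMSO replicates and 29.1, 33.9 and 23.5% in resting replicates. The sum itself was 480, 1005 and 730 CPM per kilobase in TEPP-46, 362, 366 and 309 in DMSO and 771, 884 and 1377 in resting replicates.

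Over the 9 libraries the log2 CPM of Btg2 and Pik3ip1 correlated at 0.889 (Pearson), the highest of the 21 pairs, and that of Tob1 and Tob2 at 0.879. Tsc22d3 correlated at 0.311 with Pik3ip1 and at 0.777 with Tob1. Btg3 correlated negatively with the other 6, at -0.803 with Btg2. These values describe 9 libraries that fall into 3 groups and carry no test. Among 10831 other named genes tested, the pattern of Btg2 was most like Il6st (0.991), Ap1b1 (0.989) and Gimap8 (0.988), and that of Pik3ip1 most like Fam169b (0.983), Trbj1-6 (0.979) and Ndor1 (0.974). Tsc22d3 was most like Pag1 (0.986), Ppp1r15a (0.986) and the immediate-early gene Fosb (0.980). Tob1 was most like Ptdss1 (0.997), Qrich1 (0.994) and Nelfb (0.990), and Tob2 most like Ranbp6 (0.985), Zfand2a (0.973) and Ube2w (0.957). Btg1 was most like Arl4c (0.945), the B cell gene Cd72 (0.928) and Esyt2 (0.925), and Btg3 most like Arl2 (0.932), Stra6 (0.931) and Whamm (0.927).

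Deadenylase genes, which encode the machinery that BTG and TOB proteins recruit, are a list of 17 genes. Of these 17 genes of the CCR4-NOT and PAN complexes and their partners, all tested, 0 rose and 2 fell in TEPP-46 over DMSO cells, where 9.72% of all genes rose and 6.43% fell, with a median log2 fold change of -0.09. The 2 were Prmt1, an arginine methyltransferase that binds BTG1 and BTG2 (-1.31 ± 0.24, adjusted p = 0.00813), and the poly(A)-binding protein gene Pabpc4 (-0.87 ± 0.20, adjusted p = 0.0191). The nuclease genes Cnot7 and Cnot8, named for their direct contact with BTG and TOB proteins, stood at -0.08 and -0.09 (adjusted p = 0.782 and 0.742 in edgeR). The poly(A) nuclease genes Parn (-0.72 ± 0.22, adjusted p = 0.053) and Pan3 (1.24 ± 0.42, adjusted p = 0.0693) did not pass. In DMSO over resting cells 2 of the 17 rose and 1 fell, where 15.5% of all genes rose and 15.8% fell. Those that rose were Pabpc1, the main cytoplasmic poly(A)-binding protein gene (1.03 ± 0.28, adjusted p = 0.0196), and the scaffold gene Cnot3 (0.84 ± 0.26, adjusted p = 0.0329), and Pan3 fell by 1.49 (SE 0.42, adjusted p = 0.0234). Over the alternatives, 0 to 3 rose and 1 to 6 fell with TEPP-46, while 395 to 6164 of all genes were called in either direction.

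The list of class I PI3K and its brakes has 18 genes and also holds the downstream kinase gene Akt2. Of these genes, 16 were tested, and 3 rose and 0 fell in TEPP-46 over DMSO cells (9.72% and 6.43% of all genes), with a median of 0.43. They were Inpp5d, which encodes the lipid phosphatase SHIP1 (1.01 ± 0.24, adjusted p = 0.0218), the PI3K regulatory subunit gene Pik3r5 (1.09 ± 0.28, adjusted p = 0.029) and the kinase gene Akt2 (0.87 ± 0.25, adjusted p = 0.0412). Inpp4b, another lipid phosphatase gene, missed the threshold (0.90 ± 0.28, adjusted p = 0.0546). In DMSO over resting cells, 3 rose and 3 fell (15.5% and 15.8% of all genes), with the adaptor gene Pik3ap1 at 3.69 ± 0.38 (adjusted p = 0.000254) and the regulatory subunit gene Pik3r2 at 1.05 ± 0.24 (adjusted p = 0.00857). The number that rose with TEPP-46 ran from 0 to 9 over the alternatives, and the calls over all genes in either direction from 395 to 6164.

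The FOXO list holds FOXO factors and genes they are known to drive, which PI3K signalling keeps low. In TEPP-46 over DMSO cells 7 of its 17 genes rose and 0 fell (9.72% and 6.43% of all genes), with a median of 1.01. Over the alternatives 4 to 9 rose, while the calls over all genes ran from 395 to 6164 in either direction. For DMSO over resting cells 2 rose and 7 fell, where 15.5% of all genes rose and 15.8% fell (median -0.65). The sestrin gene Sesn3, a stress-induced inhibitor of mTORC1, stood at 483 ± 97.3 CPM in TEPP-46, 167 ± 14.8 CPM in DMSO and 211 ± 35.8 CPM in resting cells (SD, n = 3), and rose in TEPP-46 over both other groups (1.53 ± 0.22 and 1.19 ± 0.22, adjusted p = 0.00337 and 0.0101). Also in the list, the egress receptor gene S1pr1, the glucose uptake inhibitor gene Txnip, the interleukin-7 receptor gene Il7r and the transcription factor gene Klf2 rose by 3.88 ± 0.48, 1.95 ± 0.33, 1.72 ± 0.34 and 2.59 ± 0.73 with TEPP-46, with edgeR adjusted p of 0.00209, 0.00606, 0.0109 and 0.0386. Foxo4, another gene that rose, was named after its values were seen. Foxo1 itself stood at 0.36 (adjusted p = 0.541).

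Among 19 other genes reported in T cell quiescence, 18 were tested, and 7 rose and 2 fell in TEPP-46 over DMSO cells (9.72% and 6.43% of all genes), with a median of 0.74. Between DMSO and resting cells 1 rose and 9 fell in DMSO cells, where 15.5% of all genes rose and 15.8% fell (median -1.02). Slfn2, a Schlafen gene needed for quiescence in mice, had 322, 239 and 311 CPM in TEPP-46 replicates 1, 4 and 5, against 73.3, 66.7 and 47.1 CPM in DMSO replicates and 499, 299 and 278 CPM in resting replicates, and rose by 2.22 ± 0.29 with TEPP-46 (adjusted p = 0.00233). Vsir, which encodes the checkpoint receptor VISTA, rose by 1.48 ± 0.27 (adjusted p = 0.00865) and Zfp36l2, an mRNA decay factor gene, by 1.48 ± 0.34 (adjusted p = 0.0185). The ubiquitin ligase gene Peli1 rose by 0.73 ± 0.20 (adjusted p = 0.0375). The retinoblastoma gene Rb1 fell by 0.97 (SE 0.19, adjusted p = 0.0112), and Klf4, named here after its values were seen, fell by 2.03 (adjusted p = 0.0263). The count that rose with TEPP-46 was 2, 2 and 1 without DMSO replicates 1, 4 and 5, 4 and 3 without TEPP-46 replicates 4 and 5, and 10 without TEPP-46 replicate 1. In the same order, the calls over all genes in either direction were 592, 535, 395, 1776, 647 and 4407. Foxo1, Klf2 and Cdkn1b stand in both this list and the FOXO list.

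Glucocorticoid receptor targets, the class that includes Tsc22d3, went in both directions. Of 13 genes, 2 rose and 2 fell in TEPP-46 over DMSO cells (median -0.50), where 9.72% of all genes rose and 6.43% fell. In DMSO over resting cells 2 rose and 6 fell (median -0.44), where 15.5% of all genes rose and 15.8% fell. With TEPP-46, the rises were in Il7r and in the chemokine receptor gene Cxcr4 (1.88 ± 0.57, adjusted p = 0.0475), and the falls in the transcription factor gene Klf9 (-1.63 ± 0.32, adjusted p = 0.00988) and the clock gene Per1 (-1.06 ± 0.22, adjusted p = 0.0134). Dusp1, a MAP kinase phosphatase gene, had 63.3, 103 and 88.0 CPM in TEPP-46 replicates 1, 4 and 5, against 56.7, 58.6 and 58.5 CPM in DMSO replicates and 503, 1203 and 996 CPM in resting replicates. Ddit4, an mTORC1 inhibitor gene, rose by 3.94 ± 0.48 in DMSO over resting cells (adjusted p = 0.00061). Of the other BTG and TSC22 family genes, Tsc22d1 rose in TEPP-46 over DMSO cells (1.19 ± 0.36, adjusted p = 0.0478) and fell by 2.99 in DMSO over resting cells (SE 0.37, adjusted p = 0.000611). Tsc22d4 (0.79 ± 0.29, adjusted p = 0.0896) and Tsc22d2 (-0.36 ± 0.44, adjusted p = 0.589) did not pass with TEPP-46.

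**Figure D4:**
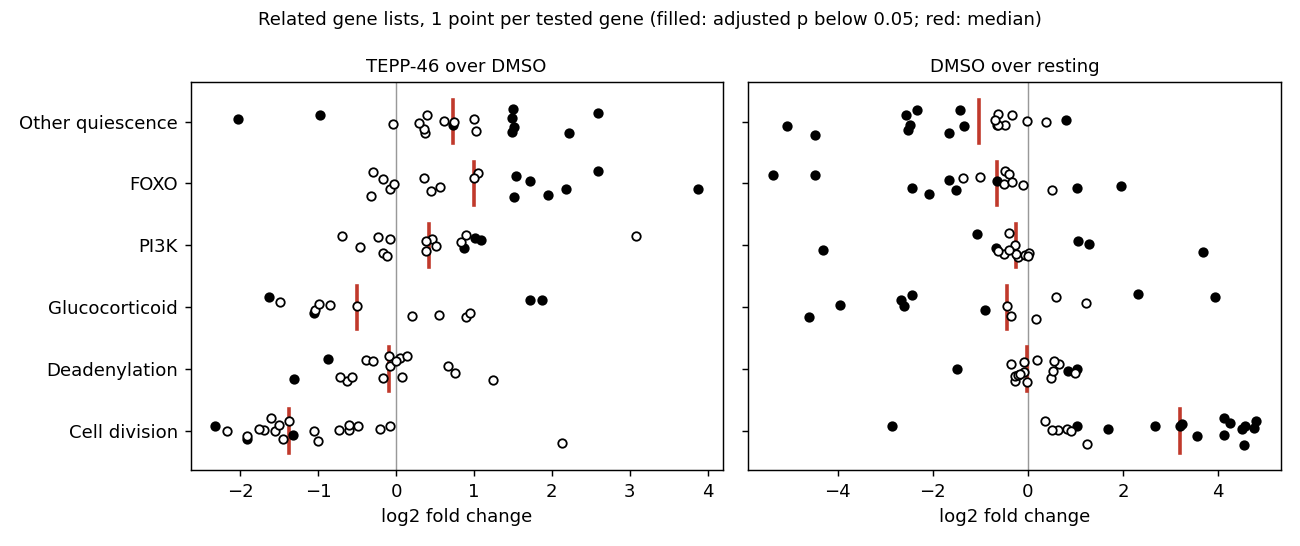
Log2 fold change of each tested gene in 6 related lists for TEPP-46 over DMSO cells and DMSO over resting cells, with filled points for an adjusted p below 0.05 and a red line at the median of each list. The medians with TEPP-46 are 0.74 for other quiescence genes, 1.01 for the FOXO list, 0.43 for PI3K, -0.50 for glucocorticoid targets, -0.09 for deadenylation and -1.38 for cell division.

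Cell division genes differed between the TEPP-46 libraries. The 21 cell division genes summed to 4386, 1945 and 1830 CPM in TEPP-46 replicates 1, 4 and 5, against 5506 to 5818 CPM in DMSO and 1030 to 2261 CPM in resting libraries. TEPP-46 replicate 1, with the highest sum, had the lowest Btg2 and Pik3ip1 of its group. In that library both genes lay above all DMSO libraries and the cell division sum lay below them. The link between these levels and cell division was not tested. In TEPP-46 over DMSO cells 0 of the 21 rose and 3 fell (9.72% and 6.43% of all genes), namely Cdk6, a G1 kinase gene (-2.33 ± 0.28, adjusted p = 0.00189), the cyclin gene Ccnd3 (-1.32 ± 0.33, adjusted p = 0.025) and the kinetochore gene Cenpf (-1.91 ± 0.57, adjusted p = 0.0462). The number that fell ran from 1 to 18 over the alternatives, where the calls over all genes ran from 395 to 6164 in either direction. The proliferation marker Mki67 stood at -1.91 ± 0.61 (adjusted p = 0.0552). In DMSO over resting cells 14 of the 21 rose and 1 fell (15.5% and 15.8% of all genes). Among those that rose were the mitotic kinase gene Aurkb (4.56 ± 0.65, adjusted p = 0.00114) and the cyclin gene Ccne1 (2.67 ± 0.40, adjusted p = 0.00145). Of the 7 B cell markers, 5 rose and 0 fell in TEPP-46 over DMSO cells (9.72% and 6.43% of all genes), and 1 to 6 rose over the same alternatives. Malat1, the ribosomal protein genes and the T cell, B cell, myeloid, platelet and neutrophil markers differed between groups or libraries. Their part in the levels of Btg2, Pik3ip1 and Btg1 was not tested. The platelet and red cell markers summed to 9.35, 209 and 53.7 CPM in TEPP-46 replicates 1, 4 and 5, with the 2 haemoglobin genes at 0, while all 4 were at 0 in DMSO libraries and summed to 0.603 to 8.19 CPM in resting libraries. The 4 neutrophil markers summed to 1.38, 87.4 and 2.26 CPM in TEPP-46 replicates 1, 4 and 5, with S100a8 at 0, to at most 0.252 CPM in DMSO libraries and to 83.7 to 121 CPM in resting libraries. Without TEPP-46 replicate 4 the log2 fold change over DMSO cells was 2.35 for Btg2 (adjusted p = 0.00559) and 1.62 for Pik3ip1 (adjusted p = 0.0366).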

How the data were processed

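RNA sequencing counts of 9 mouse T cell libraries were analysed, 3 per group. The deposited matrix holds whole-number read counts for each gene, not normalized. Per the submitters' processing notes the build was GRCm38 and DESeq2 was among the tools; aligner, counter and strand setting are not stated there. Of 47937 identifiers, 47224 were paired with GENCODE M21 symbols, with identifier versions disregarded. The filterByExpr function (minimum count 10, minimum total 15) kept 12536 of 23436 genes with a count, and all 7 genes passed. Counts were scaled by TMM and all 9 libraries were fitted by group in edgeR 4.0.16 (R 4.3.3) by its quasi-likelihood functions glmQLFit and glmQLFTest. P-values are two-sided and were adjusted by Benjamini-Hochberg over all genes. The pipeline was tested on simulated data in which all groups had the same spread for a gene. That test cannot show how the fit behaves with the wider spread among TEPP-46 libraries. Correlations used log2 CPM with a prior count of 2. Exon lengths are unions over GENCODE M21 transcripts. Alternatives were DESeq2 1.42.0, limma-voom (limma 3.58.1) with and without quality weights, other scaling factors and filters (minimum count 30 or none), the compared groups alone, a replicate block and leaving out each library. The genes and lists were chosen with earlier results of these data known, so counts within them are descriptions. Of each list, up to 4 genes were named by adjusted p in TEPP-46 over DMSO cells and up to 2 more by adjusted p in DMSO over resting cells. Cnot7, Cnot8, Foxo1, Foxo4 and Klf4 fall outside this rule, and cell type markers are given as sums. Counting floors of 3 counts cover counting error only. One gene that the naming rule chose is not reported here.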

Additional observations from a re-analysis of the deposited data

How the results depend on the processing

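Over the alternative settings, the calls of Btg2 in TEPP-46 over DMSO cells and of Btg2, Tob1, Tob2 and Tsc22d3 in DMSO over resting cells held throughout. With limma-voom, 1 of the 7 genes (Btg3) rose in DMSO over resting cells. Library quality weights were 0.218, 0.255 and 2.304 for TEPP-46 replicates 1, 4 and 5, so the weighted TEPP-46 group rested mainly on replicate 5. Resting replicates 1, 4 and 5 had 0.274, 2.096 and 1.774. With these weights, 1 gene rose in DMSO over resting cells (Btg3) and 1 fell in TEPP-46 over DMSO cells (Btg3). In TEPP-46 over resting cells 1 rose (Pik3ip1) and 4 fell, Btg1 among them. The calls over all genes then became 6164 in TEPP-46 over DMSO, 7315 in DMSO over resting and 3360 in TEPP-46 over resting cells, against 2025, 3914 and 1289. In TEPP-46 over resting cells, DESeq2 called 2091 genes. Fitting the 2 groups alone called 400 there, with 1 of the 7 genes falling. The replicate block called 705 there, also with 1 of the 7 falling, and moved no other count over all genes or the 7 genes by over 1.5 times. Among the related lists it left 1 glucocorticoid target and 0 other BTG and TSC22 genes that rose with TEPP-46. In DMSO over resting cells it left 1 FOXO gene that rose and 0 cell division genes that fell.

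Deviations of same-numbered libraries from their group means correlated at 0.036 to 0.087 between TEPP-46 and DMSO groups. They correlated at -0.026 to 0.089 between DMSO and resting and at -0.123 to -0.09 between TEPP-46 and resting groups. Each TEPP-46 library correlated best with its own number among DMSO libraries (3 of 3), as did 2 of 3 DMSO and 0 of 3 TEPP-46 libraries among resting ones. The labels do not tie equal numbers to an animal, so the numbers were not taken as pairs in the main fit. A replicate block was among the alternatives.

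Leaving out 1 library at a time, the genes of the set that rose with TEPP-46 over DMSO cells numbered 1 to 3 and those that fell 0 to 0. In DMSO over resting cells 0 to 1 rose and 4 to 6 fell, and in TEPP-46 over resting cells 0 to 0 rose and 2 to 3 fell. The calls over all genes ran from 395 to 4407, 2316 to 5194 and 426 to 1897 in these comparisons. For TEPP-46 over resting cells the log2 fold changes then ran from -0.96 to 0.016 for Btg1, -0.34 to 0.20 for Btg2 and -0.43 to 0.36 for Btg3. The sign there turned for Btg2 with quality weights (0.10), without resting replicate 5 (0.02) and without TEPP-46 replicate 1 (0.20), and without resting replicate 5 also for Btg1 (0.016) and Btg3 (0.36). None of these was called before or after, and the cause was not tested. Btg3 had as few as 9 counts in a library.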
